A study of Mus musculus with 6 samples.

Results

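Limb sites of phosphorylated Smad1 and Smad5 that lie far from genes were taken from a list of chromatin immunoprecipitation peaks in E13.5 mouse limb. A peak was included when its summit lay on chromosomes 1 to 19, outside every protein-coding RefSeq gene, and over 50 kb from the nearest end of such a gene. This rule found 2822 of the 21999 autosomal peaks, a share of 12.8% (exact 95% interval 12.4 to 13.3%). The whole limb pSmad1/5 list held 23389 peaks, and all 4 lists of the series together held 123182. The peaks just inside the rule lay 50005 bp (between Begain and Dlk1), 50049 bp (Hes1 and Cpn2) and 50141 bp (Nectin1 and Thy1) from a gene. Those just outside lay at 49993 bp (Csnk1g3 and Zfp608) and 49942 bp (Hif1an and Pax2).

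The study profiled pSmad1/5 and Smad4 in limb and in molar tooth germ of wild-type CD1 embryos (E13.5, mid-gestation), by chromatin immunoprecipitation and sequencing. Each tissue and antibody had 1 library with a peak list, and 1 input library per tissue was not analysed here. The limb is a mixture of skin, cartilage, muscle, vessel and other mesenchymal cells, and the sources used here do not say whether embryos were pooled. Peak lists hold no expression values, so the tissues were not checked against marker genes. With 1 library per group no difference has a replicate check and no test was made. Intervals are exact binomial (Clopper-Pearson) for shares and exact Poisson for densities, and they cover counting error over peaks only. Sequencing depth is unknown.

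Bone morphogenetic proteins (BMPs) bind receptor kinases that phosphorylate Smad1 and Smad5, which join Smad4, enter the nucleus and bind regulatory DNA. In the limb this pathway acts in outgrowth, digit patterning, cartilage formation and the death of cells between digits. Many regulators of limb development lie beside gene deserts, long stretches without protein-coding genes, and some of their enhancers lie at long distances from the gene inside such stretches.

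A genome sequence of the peaks was not used here, but RefSeq (GRCm38.p6, the coordinates of mm10) gives the promoter windows of long noncoding RNA (lncRNA) genes, which run from 250 bases before the annotated start to 50 after it. In the deserts 2719 lncRNA genes had such windows, and the summits of 12 of the 2822 far peaks fell into a window, of 12 different genes. Of these, 5 are shown because they lie on the Prrx2 side, have the highest scores or hold CAGAC inside the peak, and they were chosen after their values were seen. Each reads 5′ to 3′ on the strand of the lncRNA, with the bases of the pSmad1/5 peak in capitals. The windows are chr2:30721138-30721437 (minus strand, Gm14488), chr2:30686947-30687246 (plus, LOC115489511), chr6:144897720-144898019 (minus, Gm32124), chr12:107824140-107824439 (plus, Gm33341) and chr13:43864168-43864467 (plus, Gm33195).
Gm14488: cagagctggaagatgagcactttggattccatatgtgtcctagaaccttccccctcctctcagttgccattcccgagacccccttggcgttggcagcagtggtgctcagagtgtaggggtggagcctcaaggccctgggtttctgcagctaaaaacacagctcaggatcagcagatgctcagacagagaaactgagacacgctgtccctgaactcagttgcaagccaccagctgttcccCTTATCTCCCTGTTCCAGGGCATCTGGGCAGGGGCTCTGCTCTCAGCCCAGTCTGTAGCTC
LOC115489511: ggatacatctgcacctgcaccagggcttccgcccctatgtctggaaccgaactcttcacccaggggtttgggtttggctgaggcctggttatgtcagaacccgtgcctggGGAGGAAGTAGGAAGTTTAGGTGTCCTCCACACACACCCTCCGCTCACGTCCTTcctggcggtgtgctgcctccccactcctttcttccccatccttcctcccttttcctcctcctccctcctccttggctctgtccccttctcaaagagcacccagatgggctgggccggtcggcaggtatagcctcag
Gm32124: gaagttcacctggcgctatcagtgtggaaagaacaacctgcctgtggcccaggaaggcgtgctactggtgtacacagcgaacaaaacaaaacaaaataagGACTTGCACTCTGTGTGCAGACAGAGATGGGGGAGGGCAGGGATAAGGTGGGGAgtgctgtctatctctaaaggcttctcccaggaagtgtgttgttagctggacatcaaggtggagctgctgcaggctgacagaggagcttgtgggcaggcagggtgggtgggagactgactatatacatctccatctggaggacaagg
Gm33341: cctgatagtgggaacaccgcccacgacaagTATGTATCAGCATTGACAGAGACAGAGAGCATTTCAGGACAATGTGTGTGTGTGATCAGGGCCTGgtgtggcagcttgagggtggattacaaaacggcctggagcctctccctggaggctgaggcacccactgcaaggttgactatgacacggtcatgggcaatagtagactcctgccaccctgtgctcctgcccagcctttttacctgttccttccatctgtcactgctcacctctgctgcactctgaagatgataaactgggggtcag
Gm33195: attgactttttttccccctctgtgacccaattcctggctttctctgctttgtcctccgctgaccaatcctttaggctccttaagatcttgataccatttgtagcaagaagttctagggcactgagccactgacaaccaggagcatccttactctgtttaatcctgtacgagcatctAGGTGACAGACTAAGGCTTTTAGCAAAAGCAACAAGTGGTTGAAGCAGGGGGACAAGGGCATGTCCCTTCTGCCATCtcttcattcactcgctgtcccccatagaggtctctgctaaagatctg

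Gm14488 and LOC115489511 lie in the same desert on the far side of 1700001O22Rik from the limb homeobox gene Prrx2. Their peaks scored 4.72 and 3.42. The Gm14488 summit lay 19 bases after the annotated start and 42 bp from the hairpin of the microRNA Mir3089 (chr2:30721210-30721293). Gm32124 lies between Sox5, a cartilage factor, and Bcat1, and its peak scored 3.98. Gm33341 lies 86185 bp (from the summit) from Bcl11b, a zinc-finger factor, and its peak scored 3.88. Gm33195 lies between Cd83 and Jarid2, and its peak scored 3.44. None of the 12 peaks overlapped a peak of another list, beside 80 of all 2822 far peaks.

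The windows were searched on both strands for GTCT (the core letters that Smad proteins bind), for CAGAC, which contains the reverse complement of GTCT, and for GGCGCC, a GC-rich Smad1/5 sequence. GTCT was in 12 of the 12 windows, and in 88.0% of all 32817 RefSeq promoter windows of the same length and 90.04% of those of lncRNA genes. CAGAC was in 9 of the 12, in 49.6% of all windows and in 51.8% of lncRNA windows. GGCGCC was in 0 of the 12, in 11.9% of all windows and in 5.53% of lncRNA windows. Within the peak itself GTCT was found in 4 of the 12 and CAGAC in 3, those of Gm14488, Gm32124 and Gm33195. The median GC content was 53.5% in the 12 windows, 48.3% in all lncRNA windows and 52.7% in all windows. These are matches of letters in 12 windows and say nothing of the other far peaks.

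The density of limb pSmad1/5 peaks fell step by step with distance outside genes. It was 14.1 peaks per Mb inside genes (13.8 to 14.3), 26.0 in the first kb outside a gene end (24.3 to 27.8) and 7.50 at 10 to 50 kb (7.22 to 7.80). Among the far peaks it was 5.80 at 50 to 100 kb (5.46 to 6.16), 4.13 at 100 to 250 kb (3.89 to 4.38) and 2.49 at 250 to 500 kb (2.27 to 2.72). Beyond 500 kb it was 0.747 per Mb, from 161 peaks (0.636 to 0.872). Limb Smad4 went from 18.99 per Mb inside genes to 0.724 beyond 500 kb. Molar pSmad1/5 went from 19.3 to 5.69 and molar Smad4 from 16.0 to 4.02.

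**Figure D1:**
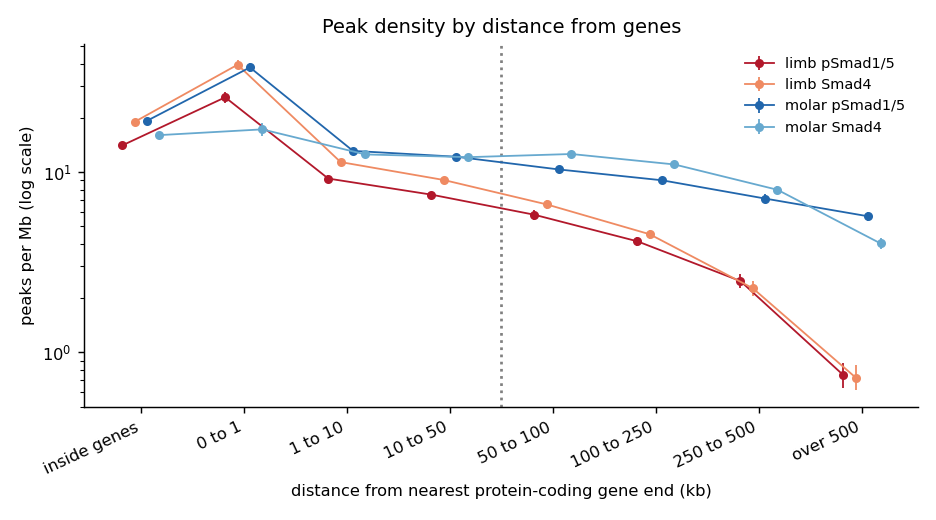
Peaks per Mb (log axis) of the 4 lists inside genes and in bins of distance outside them, in kb, with exact Poisson 95% intervals. Everything right of the dotted line is over 50 kb from genes, where both limb lists fall to under 1 peak per Mb in the last bin.

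The deserts were measured as the stretches between neighbouring protein-coding genes less 50 kb at each end. There were 2495 of them, with a median length of 129 kb and a largest length of 4442 kb, and they covered 863 Mb, or 35.5% of the sequence from the first to the last gene of the autosomes. Of the far peaks 2818 lay in them, and 4 lay beyond the first or last gene of a chromosome. Limb pSmad1/5 had 3.27 peaks per Mb of desert and 12.2 per Mb elsewhere, a ratio of 0.267. The ratio was below 1 on each of the 19 autosomes, from 0.175 on chromosome 15 to 0.421 on chromosome 13. Limb Smad4 had a ratio of 0.216, molar pSmad1/5 0.464 and molar Smad4 0.605. The share of far peaks was 10.6% in limb Smad4, 20.4% in molar pSmad1/5 and 24.99% in molar Smad4. The lowest score listed differs between chromosomes in the molar lists, so these values are set side by side and not compared.

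Far peaks lay a median of 128564 bp from the nearest gene, with quartiles of 77528 and 236924 bp. The farthest, with a score of 3.38, lay 1934095 bp from a gene between Celf4, an RNA-binding protein of neurons, and the lipid kinase gene Pik3c3 on chromosome 18. The next lay 1813936 bp away between the protocadherin genes Pcdh20 and Pcdh9 on chromosome 14 (score 3.40), and the third at 1668788 bp, again between Celf4 and Pik3c3 (score 3.13).

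Scores come from the authors' peak caller and rank peaks within this list only. Far peaks had a median score of 3.37 (quartiles 3.15 and 3.75), and the other peaks 3.49 (3.21 and 3.94). A score of at least 4 was held by 21.6% of all autosomal peaks of the list. It was held by 404 far peaks, or 14.3% (13.0 to 15.7%), and by 4337 others, or 22.6% (22.03 to 23.2%), so the 2 intervals do not overlap. Median widths were 54 and 55 bp.

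Fewer of the far peaks had a near neighbour. Of the far peaks 4.89% (4.12 to 5.75%) had another limb pSmad1/5 summit within 1 kb and 23.3% (21.7 to 24.9%) within 10 kb. The values for the other peaks were 10.6% (10.1 to 11.0%) and 44.3% (43.6 to 45.0%). The density of limb pSmad1/5 peaks was itself lower in the deserts (3.27 against 12.2 per Mb elsewhere), and its part in these shares was not tested.

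The highest score of the far peaks was 12.2, at chr17:13552090-13552136 between Tcp10c and Tcte2. It stood well above the second, 6.51, and coincided with a limb Smad4 peak whose score in its own list was 13.51. The peak lies inside the lncRNA gene 2700054A10Rik, which held 4 far peaks. Whether this stretch is a problem region of the genome was not tested. The second lay at chr17:27300885-27300943 between Lemd2, a nuclear membrane protein gene, and the glutamate receptor gene Grm4. That desert is 117 kb long and held 11 far peaks, 5 of them with a score of at least 4.

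The third highest score, 6.43, lay at chr13:55968149-55968199. It was 105447 bp from Macroh2a1, the nearer gene, and 131985 bp from Pitx1, the homeobox gene that specifies the hindlimb. The fourth, 6.38, lay 87217 bp from Vegfa, which encodes the main growth factor of blood vessels. The fifth, 6.13, lay 172217 bp from Mn1, a transcriptional regulator required for palate development. The others of the 10 highest lay between Tle3, a corepressor gene, and Rplp1 (6.08), Kcnrg and Dleu7 (6.06), Irx2 and Irx4 (5.80), Nphp4 and Ajap1 (5.80), and N4bp1 and Cbln1 (5.72). Of these 10 peaks, that between Tcp10c and Tcte2 overlapped limb Smad4 and that between Kcnrg and Dleu7 overlapped molar pSmad1/5. The other 8 overlapped no list.

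Far peaks seldom shared a site with Smad4, the partner of pSmad1/5. Of all autosomal limb pSmad1/5 peaks 4.92% overlapped a limb Smad4 peak by at least 1 bp. Among far peaks 52 did, a share of 1.84% (1.38 to 2.41%), and among the other peaks 1030 did, a share of 5.37% (5.06 to 5.70%). The share was 12.96% (11.8 to 14.1%) within 1 kb of a gene end and 3.79% (3.496 to 4.10%) for the remaining peaks inside genes or up to 50 kb away. Of the 3025 limb Smad4 peaks far from genes, the same 52 pairs made up 1.72%.

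A limb Smad4 summit lay within 10 kb of 27.8% of far peaks (26.1 to 29.5%) and of 53.5% of the others (52.8 to 54.2%), with 50.2% over all peaks. Within 1 kb the values were 7.55% (6.60 to 8.58%) and 18.96% (18.4 to 19.5%), with 17.5% over all. The density of Smad4 peaks itself is lower far from genes (above), and its part in these shares was not tested. The 52 shared far peaks had a median score of 3.75 (quartiles 3.37 and 4.23), against 3.37 for the 2770 unshared ones.

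After the Tcp10c site, the highest-scoring far peaks shared with limb Smad4 lay between Septin9 and Tnrc6c (5.33), Lemd2 and Grm4 (5.18), Nudt4 and Eea1 (5.09), and Cd82 and Alx4 (5.08). The last lay at chr2:93562530-93562586, 79866 bp from Alx4, a homeobox gene needed for the anterior to posterior polarity of the limb. Lower in the order came Bhlhe23 and Ythdf1 (4.80), LOC108167368 and Asap2 (4.79), Trabd2b and the forkhead gene Foxd2 (4.79), Tafa2 and Slc16a7 (4.74), and Mn1 and Cryba4 (4.70).

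Sites shared with the molar were rarer. In molar pSmad1/5 16 far peaks had an overlapping peak, a share of 0.567% (0.324 to 0.919%), against 1.91% (1.72 to 2.12%) of the other peaks and 1.74% of all. The highest scores belonged to a pair of limb peaks 70154 and 69899 bp from Kcnrg, towards Dleu7 (6.06 and 4.68), which touched the same molar peak. Others lay between Hdac4, a histone deacetylase that restrains cartilage maturation, and Ndufa10 (4.82), and between Opa1 and the Notch target Hes1 (4.69). A further pair lay 197983 and 331165 bp from Bcl11b (4.18 and 3.94). The rest of the 10 highest lay between Irx1 and Irx2 (3.93), Prok2 and Rybp (3.83), Brd7 and Nkd1 (3.33), and Atg10 and Ssbp2 (3.32).

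In molar Smad4 13 far peaks had an overlapping peak, 0.461% (0.246 to 0.786%), against 0.355% (0.275 to 0.449%) of the others and 0.368% of all, so that these shares could not be told apart by their intervals. The highest scores lay between Luc7l and Neurl1b (4.69), Myc and Gsdmc (4.32), Gm33989 and Vstm2b (3.95), and Boc, a hedgehog coreceptor gene, and Nepro (3.89). Next came Mycn and Ddx1 (3.78), Mrpl23 and the growth factor gene Igf2 (3.595), Got2 and Cdh8 (3.59), Rybp and Shq1 (3.34), Abca1 and Slc44a1 (3.31), and Gadd45g and Diras2 (3.27). In all, 80 of the 2822 far peaks overlapped some other list. A single one overlapped 2, at chr13:72292683-72292734 between the Iroquois homeobox genes Irx1 and Irx2, where limb Smad4 and molar pSmad1/5 both had a peak. No far peak overlapped all 3.

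Molar summits lay near a larger number of far peaks. A molar pSmad1/5 summit lay within 10 kb of 24.98% of far peaks (23.4 to 26.6%) and of 44.2% of the others (43.5 to 44.95%), with 41.8% over all peaks. Within 1 kb the values were 3.90% (3.21 to 4.68%) and 11.7% (11.2 to 12.1%), with 10.7% over all. A molar Smad4 summit lay within 10 kb of 28.3% of far peaks (26.6 to 29.98%), with 31.4% over all, and within 1 kb of 4.29% (3.57 to 5.10%), with 4.82% over all.

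**Figure D2:**
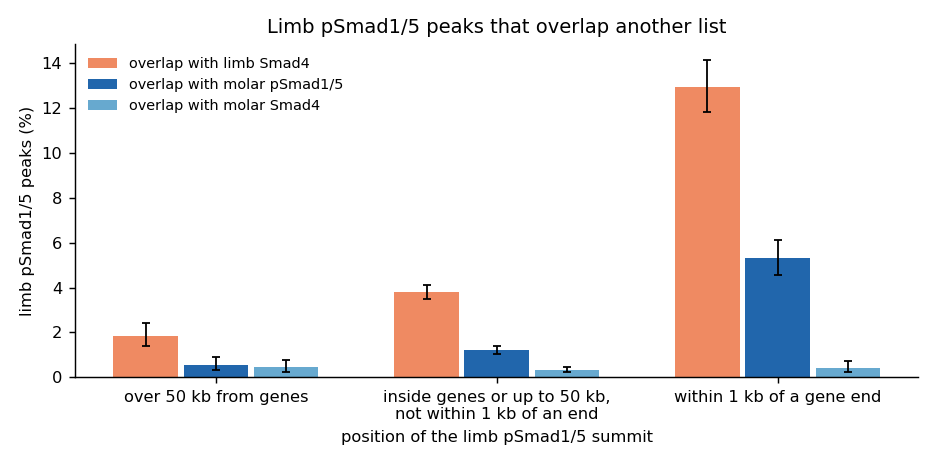
Share of limb pSmad1/5 peaks (percent) that overlap a limb Smad4, molar pSmad1/5 or molar Smad4 peak, by position of the summit, with exact binomial 95% intervals. The limb Smad4 share goes from 1.84% far from genes to 12.96% within 1 kb of a gene end, while the molar Smad4 shares are all low.

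The far peaks were unevenly spread over the deserts. Of the 2495 deserts 42.5% held a peak: 1434 held 0, 479 held 1, 436 held 2 to 4, 112 held 5 to 9 and 34 held at least 10. The 10 fullest deserts held 213 far peaks, or 7.56% of them, in 6.37 Mb. Short deserts were denser than long ones. Those under 50 kb had 7.92 peaks per Mb, those of 200 to 500 kb 4.79, and those of 1 Mb or more 1.23. A desert of 1 Mb or more still held a peak in 77.3% of cases, against 13.1% of those under 50 kb. Of the 955 deserts of at least 200 kb, 321 held no peak and the median was 1.60 per Mb, with a highest value of 74.7.

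The fullest desert was the 689 kb between Mn1 and the lens crystallin gene Cryba4 on chromosome 5. It held 37 far peaks, or 53.7 per Mb (37.8 to 74.0), with scores from 3.03 to 6.13 and a median of 3.496. They lay 77.3 to 723 kb from Mn1. The other lists had 34 peaks (limb Smad4), 9 (molar pSmad1/5) and 4 (molar Smad4, whose list starts at a score of 4 on chromosomes 2, 5 and 8 among others). With 37 limb pSmad1/5 and 34 limb Smad4 peaks in the same desert, 1 pair overlapped. Over all far peaks the share that overlapped limb Smad4 was 1.84%.

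The densest deserts of at least 200 kb lay on both sides of the forkhead genes Foxf1 and Foxl1 on chromosome 8. Foxf1 acts in the mesenchyme of lung, gut and vessels, and Foxl1 in gut mesenchyme. The desert between Irf8, a factor of myeloid cells, and Foxf1 held 17 far peaks in 228 kb, or 74.7 per Mb (43.5 to 120), with scores from 3.12 to 4.82. That between Foxl1 and 1700018B08Rik held 22 in 300.1 kb, or 73.3 per Mb (45.9 to 111), with scores from 3.07 to 5.22, of which 8 were at least 4. Limb Smad4 had 15 and 24 peaks in these deserts, molar pSmad1/5 7 and 6, and molar Smad4 3 and 5. In the 2 deserts together, 1 far peak overlapped limb Smad4, beside 1.84% of all far peaks.

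The second fullest desert, between Gm6569 and the adhesion receptor gene Adgrb1 on chromosome 15, held 27 far peaks in 576 kb, and 7 of them lay inside the lncRNA gene Gm19859. The third, between the ribosomal protein gene Rps24 and Zmiz1, a coactivator gene, held 24 in 861 kb. There limb Smad4 had 29 peaks, molar pSmad1/5 33 and molar Smad4 34. The desert between Cdh26 and 4930591A17Rik held 21, that between the stress-response gene Gadd45g and Diras2 held 19, and that between Sall3, a zinc-finger gene of limb patterning, and Galr1 held 16. The list of 10 closed with 15 each between Vrk1 and Gm46320 and between the imprinted genes Rtl1 and Dio3, tied with the deserts beside Bcl11b and Tbx3. The Rtl1 desert holds 40 microRNA genes.

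In density the order went on with Kif26a to A530016L24Rik (11 far peaks, 53.0 per Mb) and Dysf to Cyp26b1 (10, 38.4 per Mb). Cyp26b1 encodes an enzyme that degrades retinoic acid in the distal limb bud. The only desert beside Cyp26b1 lies downstream of it. The 10 peaks there lay 65.6 to 303 kb from the gene, with scores from 3.08 to 4.22. Irf2bp2 to Tomm20 (9, 38.0 per Mb) and Haao to Zfp36l2 (7, 29.8 per Mb) completed the 10 densest, together with deserts named above.

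**Figure D3:**
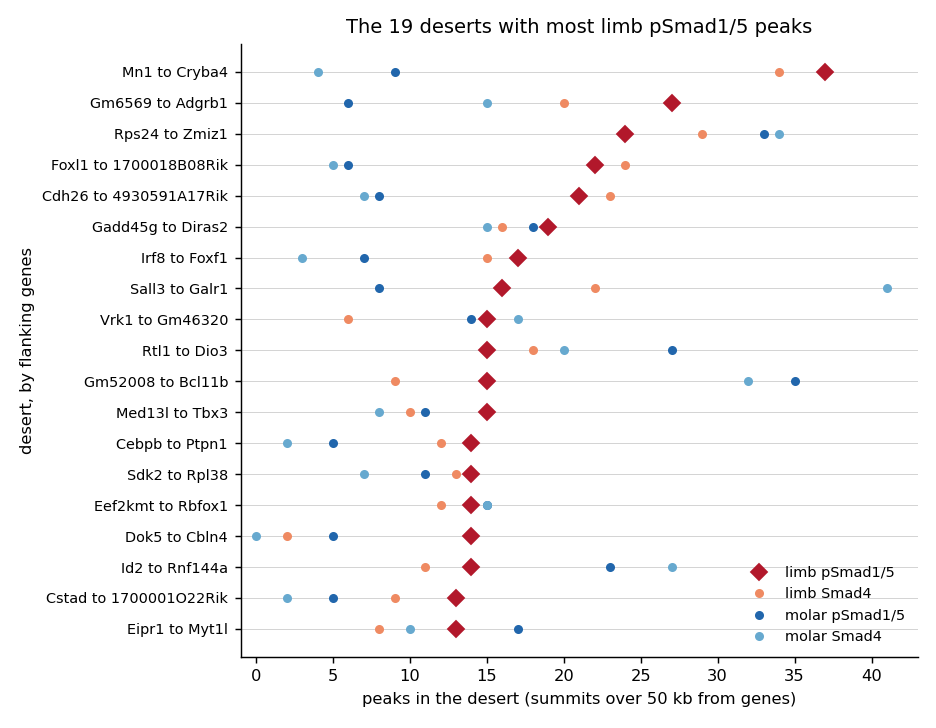
Number of peaks of each list (x axis) in the 19 deserts with most limb pSmad1/5 peaks (rows, by flanking genes), with limb pSmad1/5 as diamonds and the other lists as circles. The Mn1 desert leads with 37, and in the Sall3 desert molar Smad4 reaches 41 against 16.

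Deserts dense in limb pSmad1/5 tended to be dense in limb Smad4. Over the 955 deserts of at least 200 kb, peaks per Mb of the 2 limb lists had Pearson's r of 0.78 and Spearman's rho of 0.55. With molar pSmad1/5 the values were 0.39 and 0.29, and with molar Smad4 0.37 and 0.39. The points are the same stretches in each list and so share their sequence, and each list is 1 library of unknown depth. The lowest score listed changes between chromosomes, from 2 to 3 in molar pSmad1/5 and from 3 to 4 in molar Smad4, and is 3 on all autosomes of both limb lists. The part of these in the values was not tested. Over the 19 fullest deserts, which were picked by their limb pSmad1/5 count, the far limb pSmad1/5 peaks numbered 339. In the same deserts limb Smad4 had 293 peaks, molar pSmad1/5 263 and molar Smad4 264. Limb Smad4 had more peaks than molar pSmad1/5 in 9 of the 19. Of the 339 far peaks, 6 overlapped a limb Smad4 peak, beside 1.84% of all far peaks.

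Some of the longest deserts held no limb pSmad1/5 peak. The largest of these lay between Cntnap5b and Cdh20 on chromosome 1 (4178 kb), where 0 peaks allow a density of up to 0.883 per Mb (exact upper limit). Limb Smad4 had 1 peak there, molar pSmad1/5 57 and molar Smad4 24. On this chromosome the molar pSmad1/5 list starts at a score of 2 and the other lists at 3, and limb pSmad1/5 had its lowest density of far peaks, 1.65 per Mb, so these counts are not compared. The desert between Dsel and Cntnap5a (3720 kb) and that between Pcdh7 and G6pd2 (3576 kb) were also empty of limb pSmad1/5. These were chosen after their values were seen. Gaps in the assembly were not removed from desert lengths.

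Some deserts beside or near limb genes, chosen in part after their values were seen, show how the peaks are arranged. Prrx2, a homeobox gene of limb and facial mesenchyme, does not flank the 86.6 kb desert between Cstad and 1700001O22Rik on chromosome 2. That desert held 13 far peaks, which lay 109 to 173 kb from Prrx2. Their scores ran from 3.02 to 5.35 with a median of 3.75. Of the 13, 1 overlapped limb Smad4, beside 1.84% of all far peaks. Within this stretch 7 followed each other over 22452 bp with gaps of at most 10 kb, and 5 of these lay in the lncRNA gene Gm14488, whose promoter is printed above.

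Alx4 had 8 far peaks in the 79.5 kb desert towards Cd82, at 59.7 to 122 kb from the gene. Their scores ran from 3.01 to 5.08, with a median of 3.40, and limb Smad4 had 10 peaks in the same desert. Molar pSmad1/5 had 0 there and molar Smad4 2. Pitx1 had 6 far peaks on the side of Macroh2a1. In order of distance they lay at 67.5, 89.6, 112, 132, 143 and 166 kb, with scores of 3.29, 3.67, 4.03, 6.43, 3.42 and 3.44, so that a single site stood out.

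Tbx3, a T-box gene needed for posterior digits, had 15 far peaks in the desert towards Med13l, at 165 to 820 kb, with scores from 3.08 to 4.39. Limb Smad4 had 10 peaks there, and 0 of the 15 overlapped them, beside 1.84% of all far peaks. The only desert beside Id2, which encodes an inhibitor of helix-loop-helix factors and is a classical BMP target, lies upstream of it. That desert held 14 far peaks, at 69.97 to 1110 kb from Id2. Of these, 5 lay within 7193 bp of each other, from 169 to 176 kb upstream, with scores of 3.05, 4.85, 3.93, 3.82 and 3.95. The one at 173 kb overlapped limb Smad4.

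Shh, the signal of the posterior limb margin, had 7 far peaks on the side of Rnf32, at 104, 357, 362, 385, 438, 458 and 567 kb. Their scores ran from 3.02 to 4.20, the highest at the farthest site. Runx3, a factor of cartilage maturation, had 4 in the 83.1 kb towards Syf2, with scores from 3.04 to 5.57.

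**Figure D4:**
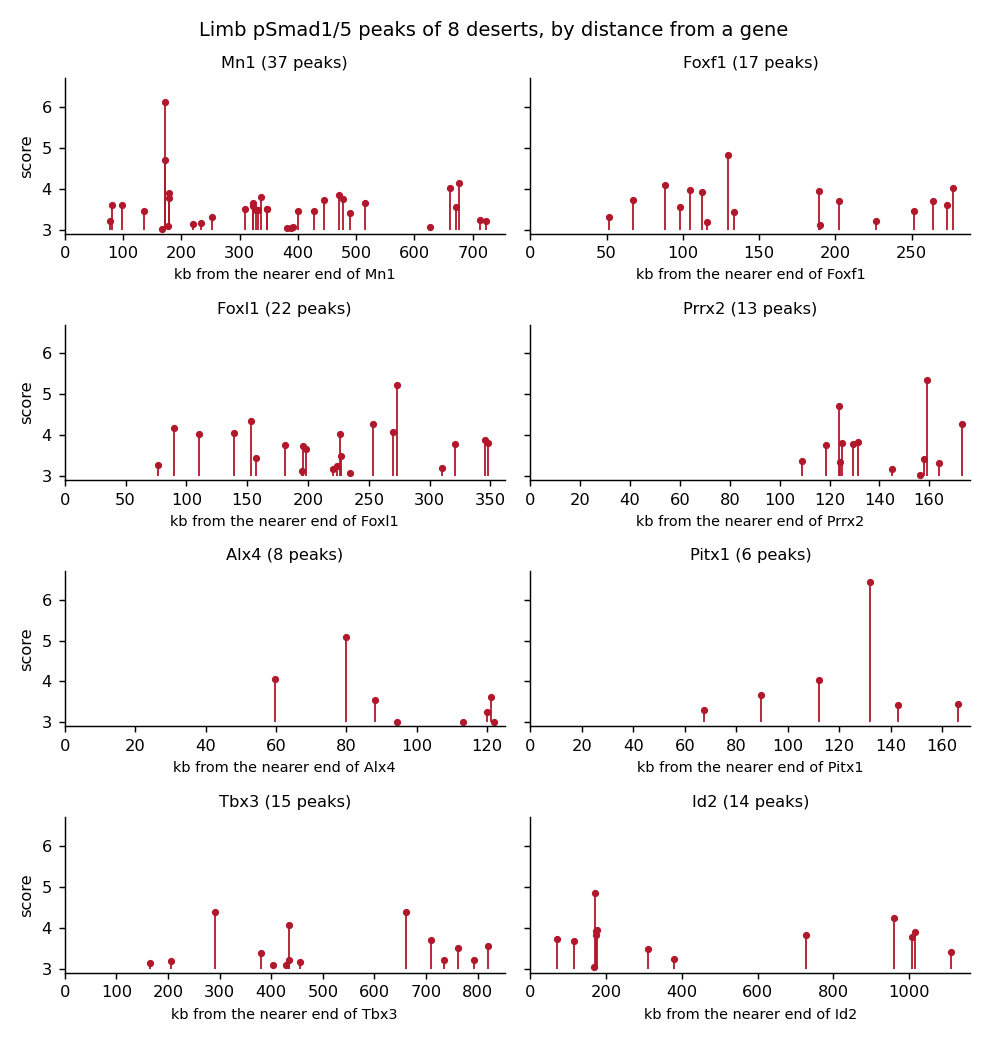
Score of each far limb pSmad1/5 peak (y axis) against its distance in kb from the nearer end of a named gene (x axis) in 8 deserts, 1 point per peak. The peaks measured from Prrx2 and Alx4 sit in short stretches, while those measured from Tbx3 and Id2 are spread over longer stretches. Prrx2 does not flank the desert measured from it.

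In runs of summits with gaps of at most 10 kb, 225 far peaks formed 62 clusters of at least 3. The largest held 8 over 30273 bp between Gadd45g and Diras2, and the next 7 between Cstad and 1700001O22Rik, on the Prrx2 side. Clusters of 6 lay between Mn1 and Cryba4 over 11042 bp and between Cebpb, a factor of fat and myeloid cells, and Ptpn1 over 24648 bp. The Cebpb desert held 14 far peaks in 140 kb with scores from 3.15 to 4.10.

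Far peaks were also set against lists of genes. Of 4103 protein-coding genes beside a desert, 46.6% had a far peak in it, and 14.4% had one of score 4 or more. The desert beside a listed gene may be claimed by its other neighbour, and of the 233 listed genes 40 are in more than 1 list. Densities of whole lists count each desert once. Densities read by length of flanking desert are summed gene by gene, so a desert between neighbours of a list counts for each. Listed genes with no desert beside them cannot have a far peak.

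Of the 20 genes of BMP ligands, receptors and Smads, 8 lay beside a desert and 7 had a far peak, a total of 12 peaks or 1.65 per Mb. Read by length of flanking desert, density was 16.1 per Mb under 200 kb (3 genes, beside 8.48 for all genes), 2.39 at 200 kb to 1 Mb (3 genes, beside 4.78) and 0.608 at 1 Mb or more (2 genes, beside 1.46). The activin receptor gene Acvr2a, Bmp4, Bmp7, Smad1 and Smad6 had 2 each. The pair at Smad1, which encodes the factor itself, lay 94.0 and 94.2 kb upstream, with scores of 4.31 and 3.62. That at the inhibitory Smad gene Smad6 lay 57.7 and 129 kb downstream (4.60 and 3.70). Bmp4, a ligand of limb and tooth mesenchyme, had 1 peak 258 kb upstream and 1 peak 471 kb downstream, both scoring 3.08. Bmp2 had 1, 276 kb away, with a score of 3.70.

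Of the BMP antagonists and modulators 4 of 8 genes beside a desert had a far peak, beside 46.6% of all genes. Of the 8, 0 had one of score 4 or more, beside 14.4% of all genes. Nog, which encodes the ligand trap noggin, had 3 at 106 to 121 kb with scores of 3.25, 3.27 and 3.38. Crim1 had 4, Bambi 2 and Bmper 1.

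Of the BMP-Smad targets 11 of 14 beside a desert had a far peak, with 6.64 peaks per Mb. Their deserts had a median length of 416 kb, against 145 kb for all genes. With under 200 kb of desert 4 of 5 had a peak (11.8 per Mb), beside 29.5% and 8.48 for all genes. At 200 kb to 1 Mb 4 of 6 did (66.7%, 7.69 per Mb), beside 65.4% and 4.78. At 1 Mb or more 3 of 3 did (5.33 per Mb), beside 82.0% and 1.46. Tbx3 and Id2 made up most of the peaks of this list, with 15 and 14. Gata3, Gata6 and Id4 had 5 each, and Msx2, a homeobox gene of limb and tooth, had 3, at 170 to 329 kb upstream with scores of 3.06, 3.17 and 4.10. Hand2, which acts upstream of Shh, had 0 in 658 kb of desert. Bmp2, Msx2 and Hand2 were added after their values were seen.

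Of the limb patterning genes 30 of 42 beside a desert had a far peak, with 5.96 per Mb. Sall3 had 16, Tbx3 15, Sall1 11, Cyp26b1 10, and the neighbours Irx3 and Irx5 10 each, counted in deserts of which some are shared. Of the cartilage, joint and bone genes 13 of 19 did (4.26 per Mb), beside 46.6% of all genes. Under 200 kb of flanking desert 3 of 8 did (12.7 per Mb), beside 29.5% and 8.48 for all genes. At 200 kb to 1 Mb 5 of 6 did (5.16), beside 65.4% and 4.78. At 1 Mb or more 5 of 5 did (3.30), beside 82.0% and 1.46. Zfp521 had 9, the matrilin gene Matn1 8, Sox5 7, and Mef2c, Trps1 and Sox9 5 each. Sox9, the master factor of cartilage, had its 5 at 179 to 710 kb on both sides, with scores of 3.49, 3.09, 3.11, 4.30 and 4.31 in order along the chromosome.

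The other cell types of the limb had lists of their own. Of limb muscle precursor genes 5 of 10 beside a desert had a far peak (1.43 per Mb). Of endothelial genes 4 of 5 did (5.96 per Mb), beside 46.6% of all genes. Under 200 kb of flanking desert 1 of 4 muscle genes (3.84 per Mb) and 2 of 3 endothelial genes (13.3) did. For all genes the values there were 29.5% and 8.48. At 200 kb to 1 Mb they were 1 of 3 (0.660) and 1 of 1 (4.21), beside 65.4% and 4.78. At 1 Mb or more they were 3 of 3 (1.54) and 1 of 1 (4.93), beside 82.0% and 1.46. Mef2c with 5 and Cdh5, the endothelial cadherin gene, with 6 led these lists. The 6 lay 517 to 1141 kb from Cdh5, in a desert it shares with another cadherin gene, Cdh11. They are 6 of the 10 peaks behind the endothelial density. Of dental mesenchyme genes 10 of 15 had a far peak (5.57 per Mb), led by Alx4 and Pitx1, which are limb genes too. Under 200 kb of flanking desert 5 of 9 did (20.8 per Mb), and at 200 kb to 1 Mb 5 of 6 did (2.43).

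The developmental factors of gene-poor regions had a far peak in 45 of 50 cases (4.29 per Mb). Sall3 with 16, Bcl11b with 15, Irx2 with 14, Tox3 with 13 and Sox11 with 12 led the list. Part of the Tox3 peaks lie in the desert that it shares with Sall1 and were counted for Sall1 above. Cadherins and protocadherins also had one in 18 of 20 cases, but with 0.758 per Mb. Cdh11, a cadherin of mesenchyme, had 7 in 4331 kb, of which 6 are those counted for Cdh5 above, and Pcdh10 had 6 in 4381 kb. Their deserts had a median length of 3742 kb, against 145 kb for all genes, 465 kb for limb patterning and 871 kb for the factors of gene-poor regions.

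Genes with long deserts more often had a peak, so the lists were also read by desert length. At 200 kb to 1 Mb of flanking desert, 18 of 22 limb patterning genes (81.8%) had a far peak with 6.83 per Mb, beside 65.4% and 4.78 per Mb for all such genes. At 1 Mb or more, 5 of 7 did (71.4%, 3.92 per Mb), beside 82.0% and 1.46. Under 200 kb, 7 of 13 did (53.8%, 18.4 per Mb), beside 29.5% and 8.48. Factors of gene-poor regions at 1 Mb or more had 21 of 22 and 3.39 per Mb, and the cadherins there 16 of 17 and 0.632 per Mb. These lists are small and no test was made of them.

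**Figure D5:**
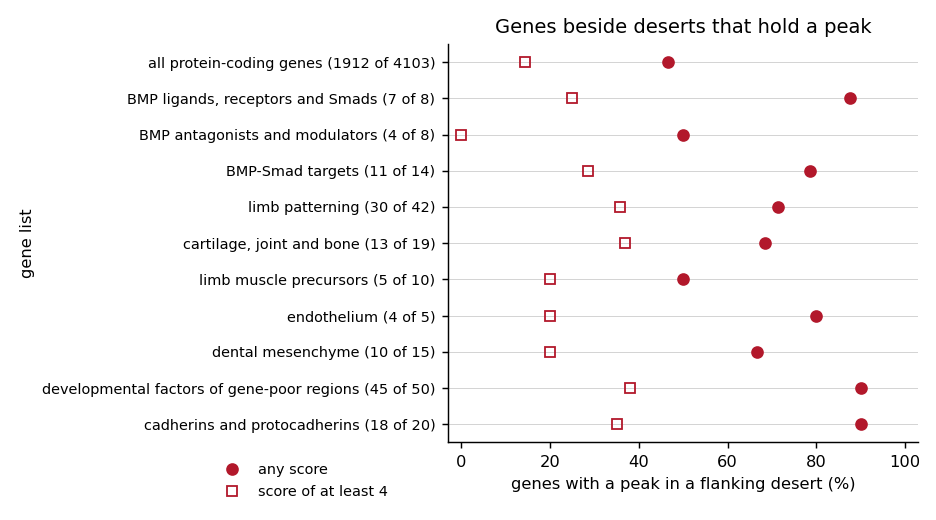
Percent of genes beside a desert that have a limb pSmad1/5 peak in it, for all protein-coding genes and 10 lists (rows, with counts), for peaks of any score (filled) and of score 4 or more (open). The cadherins and the factors of gene-poor regions both reach 90% at any score, beside 46.6% for all genes.

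Many far peaks lay in lncRNA genes, which the rule did not count as genes. Of the 2818 peaks in deserts 570 (20.2%, 18.8 to 21.8%) had their summit inside one, while such genes cover 11.4% of desert length. Within 1 kb of a lncRNA gene end lay 145 (5.15%, 4.36 to 6.03%). The share of desert length so close to such ends was not measured, so this count has no background. In all, 436 lncRNA genes held a far peak and 34 held at least 3. The 2719 lncRNA genes with a promoter window in the deserts are counted by their start, not by their body. They are thus no matching background for the 436. Gm19859 beside Adgrb1, Gm36894 beside Kif26a and Gm41414 beside Rbfox1 held 7 each. These genes were chosen after their counts were seen.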

How the data were processed

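Chromatin immunoprecipitation libraries of E13.5 limb and molar were sequenced, and per the labels the authors' caller was BCP in transcription factor mode, with 1 deposited list per library on mm10. The submitters' processing notes also name bcl2fastq, Bowtie2, SAMtools, deepTools and bedtools, with no version. Use of the inputs, duplicates and problem regions are not given in the sources used here. The deposited enrichment score was used only to rank and filter peaks within a list, and the deposited p-value was not used. No read counts were used, so depth is unknown.

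Genes came from RefSeq (GRCm38.p6), with 20665 autosomal protein-coding genes, and strands came from its promoter table. Distances run from the summit to either gene end, and exons and introns were not separated. The planned motif count in peak windows needed a genome and was not run, so promoter windows were searched. Peaks overlapped when they shared 1 bp. Genes were named by a rule: flanking genes of the 10 fullest and 10 densest deserts, of the 10 highest-scoring peaks overall and per overlap, and of the 3 farthest, and up to 5 genes per list with ties. A few genes it selects are not reported here. Names outside it are said to be chosen after seeing values. The peaks, the 10 gene lists and the rule were chosen with earlier results of these data known.

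Alternatives were other distances, all RefSeq genes, other overlap rules and a score of at least 4. Desert assignment and overlap were tested on simulated data, and all placed peaks were recovered. Software was Python 3.11.15 with scipy 1.17.1, numpy 2.4.6, pandas 2.3.3 and, for plots, matplotlib 3.10.9.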

Additional observations from a re-analysis of the deposited data

Results flagged for a closer look

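Chromosome X was outside the rule. The lowest limb pSmad1/5 score listed there, rounded down, was 2, and 365 of the 1346 peaks lay over 50 kb from genes, a share of 27.1% (24.8 to 29.6%). On this chromosome limb Smad4 had a share of 29.6%, molar pSmad1/5 30.8% and molar Smad4 30.7%. It was looked at because it lies outside the main measurement.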

How the results depend on the processing

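The share of far peaks was 18.1% at over 25 kb, 7.996% at over 100 kb, 3.26% when lncRNA and other RefSeq genes counted as genes, and 8.52% at a score of at least 4. Their density was 3.88, 2.58, 1.85 and 0.465 per Mb in the same order, and its ratio to the density elsewhere stayed below 1 in each (0.302, 0.223, 0.177 and 0.168). Overlap with limb Smad4 was 3.86% for summits within 200 bp, 1.17% when the overlap covered at least 50% of either peak, and 1.24% at a score of at least 4 in both lists. Overlap with molar pSmad1/5 was 0.957% within 200 bp and 0 of 404 at a score of at least 4, for which the exact upper limit is 0.909%. Overlap with molar Smad4 was 1.06% within 200 bp. At a score of at least 4, 14.4% of all genes beside a desert had a far peak. Listed genes with one numbered 2 of 8 (BMP ligands, receptors and Smads), 0 of 8 (antagonists) and 4 of 14 (BMP-Smad targets). They numbered 15 of 42 (limb patterning), 7 of 19 (cartilage, joint and bone), 2 of 10 (muscle) and 1 of 5 (endothelium). The rest were 3 of 15 (dental mesenchyme), 19 of 50 (factors of gene-poor regions) and 7 of 20 (cadherins). Desert length, which differs between lists, was not taken into account here. The causes of these shifts were not tested.

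The median score stayed lower far from genes at over 25 kb, over 100 kb and a score of at least 4. The limb Smad4 overlap ran from 1.66% to 1.96% as each chromosome was left out in turn, and without deserts that start below 3 Mb the share was 12.8%. These last alternatives were added after seeing the data. No paired analysis was possible because each group had 1 library.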
